A study of Mus musculus with 28 samples.

Results

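The genes described here encode the voltage-gated sodium, calcium and potassium channels of the mouse heart, with the other potassium channels, the pacemaker channels and their auxiliary subunits. They were taken by name, as every protein-coding gene whose symbol starts with Kcn or Cacn, or with Hcn or Scn followed by a digit. This gave 138 genes of 21719 protein-coding genes and 45318 gene rows in all. Of these, 133 had 10 or more counts in at least 3 libraries after 3 days and 131 after 21 days, 128 did so at both times and 2 at neither.

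The study operated on neonatal mice on postnatal day 1 or day 7, by ligation of the left anterior descending coronary artery (MI) or by a SHAM operation, and sequenced RNA of the left ventricle away from the infarct. Hearts were taken 3 or 21 days later, at an age of 4 or 22 days after the day-1 operations and of 10 or 28 days after the day-7 operations. The 8 groups are 7d-MI + 3, 7d-SHAM + 3, 1d-MI + 3 and 1d-SHAM + 3, with 4 mice each, and 7d-MI + 21, 7d-SHAM + 21, 1d-MI + 21 and 1d-SHAM + 21, with 3 mice each. Each name gives the operation day, the operation and the days of follow-up. All mice were male, of the outbred stock Hsd:ICR(CD-1), and no transgene or other treatment is named for any group. The mouse heart regenerates after injury in the first days of life and has lost this capacity by day 7, which is why both ages were operated on. The animal names differ in their first part from group to group, so litter or operation session and group cannot be told apart, and p-values measure the spread between the mice of these groups.

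The heartbeat is an electrical event before it is a mechanical one. Sodium channels start the action potential of a cardiomyocyte, calcium channels hold it up and trigger contraction, and a set of potassium currents ends it and keeps the cell at rest. In rodents the ventricular action potential shortens during the weeks after birth, as transient outward and other voltage-gated potassium currents grow, and hypertrophied or failing hearts are known for lower levels of several of these channels. The pore-forming subunits set which ion passes and at what voltage, and the smaller beta, Kcne and KChIP subunits set how many channels reach the membrane and how fast they open and close.

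Many of the 138 genes are neuronal, and their counts are small enough for stray reads to matter. The total count per library was 33077962 to 51942648 after 3 days and 40514177 to 168550985 after 21 days, of which ribosomal RNA loci took 2.92 to 25.9% and 3.58 to 72.9%. A background level was therefore estimated for each library from 64 genes restricted to tissues other than heart, in RPKM taken over the protein-coding counts (RPKM is the count per kilobase of gene, scaled to the size of the library). It ranged over 0.0243 to 0.0438 in 7d-MI + 3, 0.0154 to 0.0261 in 7d-SHAM + 3, 0.0766 to 0.487 in 1d-MI + 3 and 0.0349 to 0.116 in 1d-SHAM + 3. In 1d-MI + 3 it would account for 6.63 to 30.2% of the channel counts of a library, against 1.18 to 1.76% in 7d-SHAM + 3. After 21 days it was 0.0618 to 0.0709 in 7d-MI + 21, 0.0427 to 0.354 in 7d-SHAM + 21, 0.0396 to 0.103 in 1d-MI + 21 and 0.0736 to 0.168 in 1d-SHAM + 21. A second rate, from 1251 receptor genes of nose, tongue and vomeronasal organ, was lower in each library. It was 0.0136 to 0.100 in 1d-MI + 3 and 8.54e-05 to 0.000358 in 7d-SHAM + 3. The first, higher rate is used throughout, and the background shares and the genes set aside below depend on that choice. A gene is called above background below when it had 10 or more counts and more than 3 times its expected background in at least 3 libraries of a follow-up. This held for 76 of the 138 genes after 3 days, 83 after 21 days, 73 at both times and 52 at neither. A gene that meets the rule through 1 group alone had to be high in that group, so the counts of such genes below describe them and are not independent evidence of a direction.

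**Figure D1:**
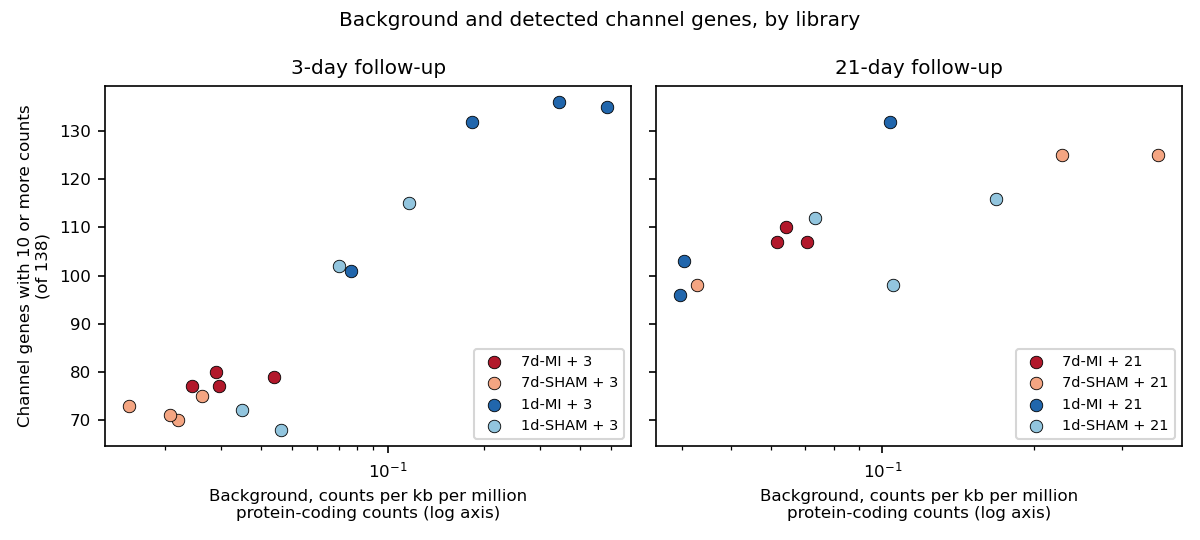
Each point is 1 library, coloured by group, with 1 panel per follow-up. The horizontal log axis gives the background in RPKM over protein-coding counts and the vertical axis the number of the 138 channel genes with 10 or more counts, which was 132 to 136 in 3 of the 4 libraries of 1d-MI + 3, against 70 to 75 in 7d-SHAM + 3.

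The most abundant channel transcripts per unit of length included subunits of the repolarising and calcium channels of the ventricle. On the RPKM scale, averaged over the 4 groups after 3 days, Kcne1 came first with 22 RPKM. Cacna2d1, the alpha2-delta subunit of the L-type calcium channel, followed with 10.6 RPKM. Kcnk3, a 2-pore background potassium channel, had 8.39 and the silent subunit Kcng2 had 7.93 RPKM. Their order turned between groups, for Kcnk3 had 8.30 ± 2.20 RPKM and Kcng2 5.98 ± 0.765 RPKM in 7d-MI + 3, but 7.53 ± 2.39 and 8.60 ± 1.46 RPKM in 1d-SHAM + 3 (SD, n = 4). After 21 days Kcnip2 led with 42.6 RPKM, followed by Kcnk3 with 20.6, Kcnj2 with 12.6 and Cacna2d1 with 12.3 RPKM, while Kcne1 averaged 3.35 RPKM and ranked 20. Both follow-ups were made with different library kits and sequencers, so their levels are given side by side and were not compared. Of the genes above background, 2 reached 10 RPKM after 3 days and 4 after 21 days, 25 and 27 lay between 1 and 10 RPKM, and 49 and 52 were below 1 RPKM.

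The comparison of SHAM hearts asks how the channel genes differ between an age of 10 and 4 days without an infarct. Several potassium channel genes of the mature ventricle, among them Kcnd2 and Kcnip2, were higher in the older SHAM hearts. In 7d-SHAM + 3 against 1d-SHAM + 3, edgeR called 13 of 126 tested channel genes higher and 15 lower at an adjusted p under 0.05, where 8.12% and 12.2% of all 20345 genes were called. The 13 that rose were all above background, among them Hcn2, Kcnd2, Kcnip2, Scn7a, Kcnn3, Kcne1, Kcnt2, Kcnj11, Kcna5, Kcnk3 and Cacna2d1. The median log2 fold change was 0.13 over the 76 genes above background, but -0.33 over all 126 channel genes tested. Over all genes, where no background rule was applied, it was -0.13.

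Among the members of the transient outward current, Kcnd2 encodes the pore (Kv4.2) and Kcnip2 the cytosolic KChIP2 subunit that it needs in the ventricle. Levels below are in CPM, the count of a gene scaled to a TMM-adjusted library size, and are compared between samples only. Kcnd2 had 19.5, 18.6, 19.5 and 19.6 CPM in the 7d-SHAM + 3 libraries, against 6.37, 6.93, 4.85 and 7.16 CPM in 1d-SHAM + 3. The groups did not overlap, and the log2 fold change, here and below given ± its standard error (SE), was 1.61 ± 0.42, adjusted p = 0.014. Kcnip2 had 20.5, 23.9, 20.2 and 24.9 CPM in 7d-SHAM + 3, against 4.86, 5.52, 9.97 and 12.4 CPM in 1d-SHAM + 3, and changed by 1.46 ± 0.34, adjusted p = 0.0072. Kcnd3, the pore of the same current in larger mammals, was low throughout and not called (log2 fold change 0.79 ± 0.56, adjusted p = 0.32). Kcna4, whose channel carries the slowly recovering transient outward current of the immature heart, fell: it had 11.3, 8.54, 9.58 and 7.52 CPM in 7d-SHAM + 3 and 15.9, 15.9, 13.0 and 9.02 CPM in 1d-SHAM + 3 (log2 fold change -0.55 ± 0.19, adjusted p = 0.049). Its groups overlapped, and the call ended under 5 of the alternatives, among them limma-voom (adjusted p = 0.065).

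Kcna5, which carries a slowly inactivating potassium current of the mouse ventricle, rose by 0.78 ± 0.21 on the log2 scale (SE), with adjusted p = 0.012 in edgeR. Kcne1, the small membrane subunit that slows the Kcnq1 channel, had 118, 117, 106 and 122 CPM in 7d-SHAM + 3 and 66.9, 59.4, 58.4 and 68.5 CPM in 1d-SHAM + 3. On the log2 scale Kcne1 changed by 0.87 ± 0.15 (adjusted p = 0.00042) and its partner Kcnq1 by -0.05 ± 0.15 (adjusted p = 0.84). The pacemaker channel gene Hcn2 showed the largest rise, with 7.95, 12.5, 9.65 and 11.9 CPM in 7d-SHAM + 3, against 1.67, 1.10, 2.79 and 2.80 CPM in 1d-SHAM + 3 (log2 fold change 2.34 ± 0.34, adjusted p = 0.00012). Hcn4, the main pacemaker channel of the sinoatrial node, stayed near 0 in both groups, with 0.186 to 0.680 and 0.0886 to 0.930 CPM. Scn7a, an atypical sodium channel that senses the sodium level and does not open with voltage, rose by 1.33 ± 0.17 on the log2 scale (SE; adjusted p = 3.3e-05).

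The T-type calcium channels open at low voltage and are a feature of the fetal and neonatal ventricle. Cacna1h fell furthest among the genes above background: it had 0.272, 0.557, 0.461 and 0.380 CPM in 7d-SHAM + 3, against 1.75, 3.64, 2.97 and 3.20 CPM in 1d-SHAM + 3 (log2 fold change -2.77 ± 0.37, adjusted p = 4.2e-05). Its companion Cacna1g was not called, with 6.39 to 9.998 CPM in 7d-SHAM + 3 and 5.35 to 9.16 CPM in 1d-SHAM + 3. The L-type pore gene Cacna1c and its beta subunit gene Cacnb2 were not called either (log2 fold changes 0.29 ± 0.19 and 0.26 ± 0.18). The others above background that fell were Kcne3, Kcnq5 and Kcnj4, a Kir2 inward rectifier. Of these 5 calls, those of Cacna1h and Kcne3 were kept after the expected background had been subtracted. The remaining 10 lower calls, among them Kcnc1, Kcnt1, Kcnk7, Cacng2, Kcnh3, Kcns1, Kcns3, Kcnq3 and Cacng4, were genes not above background, and the background itself was higher in 1d-SHAM + 3. Of the 18 calls above background 9 held under each alternative and without any single library, among them Hcn2, Kcne1, Kcnip2, Kcnn3, Kcnt2, Scn7a and Cacna1h.

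In the same SHAM comparison 5 of 7 cardiomyocyte marker genes, 3 of 4 fibroblast, 3 of 4 endothelial and 2 of 4 leukocyte marker genes were called higher in 7d-SHAM + 3. The summed cardiomyocyte markers were 22909 to 24489 CPM in 7d-SHAM + 3 and 13535 to 15521 CPM in 1d-SHAM + 3. In pieces of whole tissue, fewer cells of a type and less RNA per cell cannot be told apart, so a difference here can be one of cell numbers, and the part of cell makeup in these calls was not tested.

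**Figure D2:**
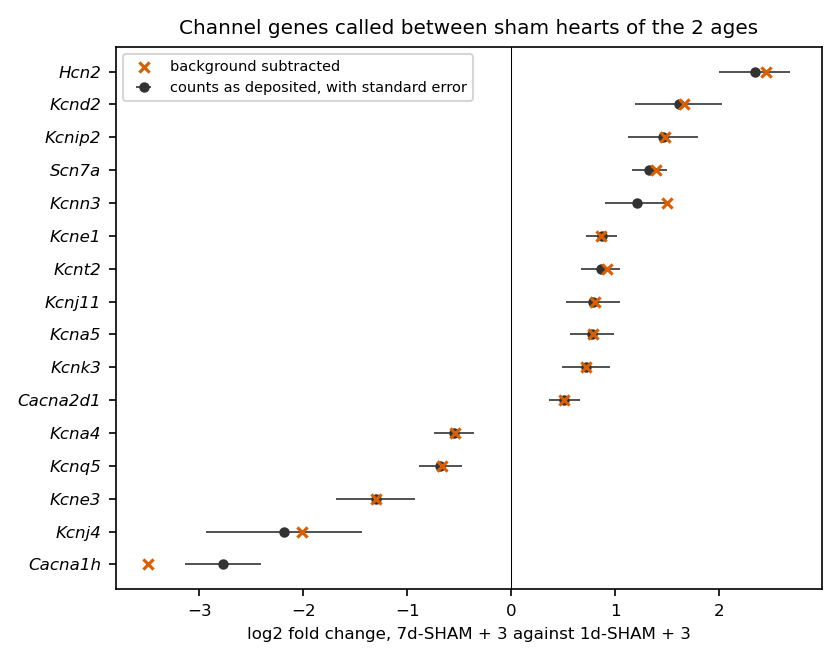
Log2 fold change in 7d-SHAM + 3 against 1d-SHAM + 3 of channel genes above background that were called, 1 row per gene; points with bars are the counts as deposited with the standard error, and crosses the values after the background was subtracted. Hcn2 stands at the top with 2.34 and Cacna1h at the bottom with -2.77.

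After MI on day 7, genes for several repolarising potassium currents of the ventricle were lower 3 days later, and Kcnj15, Kcnab2, Kcnn4, Kcne4 and Kcne3 were higher. In 7d-MI + 3 against 7d-SHAM + 3, edgeR called 15 of 126 channel genes higher and 22 lower, where 19.8% and 14.2% of all genes were called. The channel genes called were 11.9% and 17.5% of those tested, so the share higher was below and the share lower close to that of all genes. The 76 genes above background hold 13 of the higher and 20 of the lower calls, with a median log2 fold change of -0.33. The median was -0.08 over all 126 channel genes tested and 0.08 over all genes, where no background rule was applied. By role, the lower calls comprise 5 of the inward rectifiers, 3 of the voltage-gated potassium pores of the Kv1 to Kv4 families, Kcnh2 and Kcnq1, 2 calcium channel pores, 2 sodium channel pores, 1 pacemaker channel and 5 auxiliary or silent subunits.

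Kcne1 had 50.5, 34.6, 39.0 and 40.3 CPM in 7d-MI + 3, against 118, 117, 106 and 122 CPM in 7d-SHAM + 3, at a log2 fold change of -1.49 ± 0.15, adjusted p = 4.2e-07. Its partner Kcnq1, the pore of the slow delayed rectifier, fell less, with 9.60, 9.57, 10.9 and 10.2 CPM in 7d-MI + 3 and 14.5, 13.0, 15.4 and 15.01 CPM in 7d-SHAM + 3 (log2 fold change -0.52 ± 0.15, adjusted p = 0.0084). The groups did not overlap for either gene. Kcnh2, the pore of the rapid delayed rectifier (ERG), had 10.4, 7.21, 15.5 and 11.2 CPM in 7d-MI + 3 and 26.2, 27.4, 29.7 and 25.3 CPM in 7d-SHAM + 3 (log2 fold change -1.29 ± 0.21, adjusted p = 7e-05).

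Of the transient outward current, Kcnd2 and Kcnip2 both fell. Kcnd2 had 3.75, 1.41, 9.30 and 2.39 CPM in 7d-MI + 3, against 19.5, 18.6, 19.5 and 19.6 CPM in 7d-SHAM + 3, the largest decrease of a voltage-gated pore above background (log2 fold change -2.20 ± 0.42, adjusted p = 0.00081). Kcnip2 had 7.91, 6.07, 17.4 and 7.05 CPM in 7d-MI + 3 and 20.5, 23.9, 20.2 and 24.9 CPM in 7d-SHAM + 3 (log2 fold change -1.22 ± 0.34, adjusted p = 0.0095). For both, replicate 3 of 7d-MI + 3 was the highest of its group and still below each SHAM library. Kcna5 had 5.81, 4.53, 6.78 and 4.32 CPM in 7d-MI + 3 and 13.9, 18.3, 19.0 and 19.0 CPM in 7d-SHAM + 3, with tight groups that lay well apart (log2 fold change -1.71 ± 0.21, adjusted p = 3.9e-06). Kcng2, a silent subunit that forms no channel on its own, fell by 0.86 ± 0.15 on the log2 scale (SE; adjusted p = 0.00012). Kcna4 and Kcnd3 were not called (log2 fold changes -0.19 ± 0.19 and -0.94 ± 0.56).

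Inward rectifiers hold the resting potential. Kcnj2, the main ventricular one (Kir2.1), had 24.9, 23.0, 33.4 and 31.7 CPM in 7d-MI + 3 and 60.2, 38.5, 36.7 and 54.2 CPM in 7d-SHAM + 3 (log2 fold change -0.75 ± 0.20, adjusted p = 0.006), while Kcnj12, which encodes the related Kir2.2, was not called (-0.49 ± 0.22, adjusted p = 0.094). Kcnj3 and Kcnj5 together form the potassium channel that acetylcholine opens through G proteins, best known from the atria. Kcnj5 had 13.5, 9.73, 16.9 and 11.4 CPM in 7d-MI + 3 and 44.7, 34.8, 36.4 and 38.8 CPM in 7d-SHAM + 3 (log2 fold change -1.58 ± 0.20, adjusted p = 5.2e-06). Kcnj3 had 4.10, 1.59, 4.60 and 1.21 CPM in 7d-MI + 3 and 11.9, 13.5, 11.96 and 13.3 CPM in 7d-SHAM + 3 (log2 fold change -2.14 ± 0.40, adjusted p = 0.00055), but 31.1% of its exon bases lie under exons of the opposite-strand gene Gm26794 and the strand setting of the counting is not given in the sources used here. Opposite-strand exons also cover 12.2% of the exon bases of Kcnk2 and 9.1% of those of Kcng2, so the same limit applies to them.

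Kcnj11 and Kcnj8 encode the pores of the ATP-sensitive potassium channels of cardiomyocytes and of vascular mural cells. Kcnj11 had 1.30, 2.28, 2.62 and 2.06 CPM in 7d-MI + 3 and 2.24, 4.58, 3.84 and 5.05 CPM in 7d-SHAM + 3, with groups that overlapped at the lowest SHAM library (log2 fold change -0.93 ± 0.26, adjusted p = 0.0087). Kcnj8 had 8.93, 10.96, 8.54 and 9.89 CPM in 7d-MI + 3 and 21.2, 22.8, 20.03 and 17.6 CPM in 7d-SHAM + 3, with no overlap (log2 fold change -1.09 ± 0.20, adjusted p = 0.00021). Abcc8 and Abcc9, the sulfonylurea receptors that complete these channels, were called lower as well, Abcc9 with a log2 fold change of -1.11 ± 0.20 (adjusted p = 0.00019), and so was the pericyte marker Rgs5, with -1.05 (adjusted p = 0.00014). The other 3 of 4 mural markers were called higher, and the summed mural markers were 590 to 972 CPM in 7d-MI + 3 and 1205 to 1385 CPM in 7d-SHAM + 3.

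Of the calcium channel genes, Cacna1c, the L-type pore that triggers contraction, had 53.2, 46.5, 91.4 and 46.9 CPM in 7d-MI + 3 and 128, 90.8, 96.2 and 98.2 CPM in 7d-SHAM + 3 (log2 fold change -0.79 ± 0.19, adjusted p = 0.0032). Cacnb2, its beta subunit, fell by 0.76 ± 0.18 on the log2 scale (SE; adjusted p = 0.0027), and Cacna2d1 was not called (-0.07 ± 0.15). For Cacna1c and Cacnb2 the group ranges met only at replicate 3 of 7d-MI + 3. The T-type gene Cacna1g had 4.16, 6.38, 4.23 and 5.18 CPM in 7d-MI + 3 and 6.39, 9.998, 7.66 and 9.66 CPM in 7d-SHAM + 3 (log2 fold change -0.76 ± 0.26, adjusted p = 0.027), and Cacna1h was near 0 in both groups. The gamma subunit gene Cacng6 also fell (log2 fold change -2.03 ± 0.65, adjusted p = 0.021).

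Among the sodium channels, Scn10a, a channel of sensory neurons, and Scn3a, a mainly neuronal one, fell at low levels. Scn10a had 0.483, 0.309, 0.431 and 0.130 CPM in 7d-MI + 3 and 2.24, 1.18, 1.41 and 0.543 CPM in 7d-SHAM + 3 (log2 fold change -1.96 ± 0.43, adjusted p = 0.0012), and Scn3a had 0.738 to 0.862 CPM in 7d-MI + 3 and 2.10 to 2.41 CPM in 7d-SHAM + 3 (-1.50 ± 0.36). Scn3b, Scn4a, Scn4b and Scn7a were not called. Hcn2 had 4.68, 2.94, 8.78 and 3.69 CPM in 7d-MI + 3 and 7.95, 12.5, 9.65 and 11.9 CPM in 7d-SHAM + 3, overlapping at replicate 3 of 7d-MI + 3 (log2 fold change -1.06 ± 0.32, adjusted p = 0.014), and Hcn4 was not called.

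The largest rise above background was that of Kcnj15, which encodes the inward rectifier Kir4.2, known best from epithelia. It had 8.56, 12.8, 15.3 and 13.3 CPM in 7d-MI + 3, against 0.476, 0.464, 0.512 and 1.14 CPM in 7d-SHAM + 3 (log2 fold change 4.25 ± 0.48, adjusted p = 3.4e-06). Kcnab2, a cytosolic beta subunit of the Kv1 channels, had 8.69, 8.43, 4.90 and 8.35 CPM in 7d-MI + 3 and 1.43, 1.02, 1.33 and 1.90 CPM in 7d-SHAM + 3 (log2 fold change 2.41 ± 0.46, adjusted p = 0.00046). The lowest MI library of each lay above the highest SHAM library. Kcnn4, a calcium-activated potassium channel of lymphocytes, macrophages and red cells, had 2.34, 1.16, 0.744 and 1.74 CPM in 7d-MI + 3 and 0.0680, 0.371, 0.102 and 0.217 CPM in 7d-SHAM + 3 (log2 fold change 2.96 ± 0.59, adjusted p = 0.0006). Kcnk13, a 2-pore channel known from microglia, had 1.73, 2.15, 0.842 and 1.61 CPM in 7d-MI + 3 and 0.748, 0.248, 0.307 and 0.489 CPM in 7d-SHAM + 3 (log2 fold change 1.82 ± 0.56, adjusted p = 0.016).

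The modifier subunits Kcne3 and Kcne4, which change or silence several voltage-gated potassium channels, both rose. Kcne4 had 4.20, 8.59, 3.10 and 5.88 CPM in 7d-MI + 3 and 0.952, 1.42, 0.871 and 1.85 CPM in 7d-SHAM + 3 (log2 fold change 2.09 ± 0.41, adjusted p = 0.00057), and Kcne3 had 2.04, 3.17, 1.53 and 2.95 CPM in 7d-MI + 3 and 0.340, 0.867, 0.717 and 0.651 CPM in 7d-SHAM + 3 (1.90 ± 0.38, adjusted p = 0.00058). Cacna1d, the L-type pore of atrial and nodal cells, had 4.49, 4.10, 3.60 and 4.12 CPM in 7d-MI + 3 and 2.01, 1.49, 1.87 and 2.31 CPM in 7d-SHAM + 3 (log2 fold change 1.09 ± 0.26, adjusted p = 0.0023), the opposite direction to Cacna1c. Cacnb1, the beta subunit of skeletal muscle, rose by 0.83 ± 0.24 and the stretch-sensitive 2-pore channel gene Kcnk2 by 0.98 ± 0.30 on the log2 scale (SE). Kcnma1 and Kcnmb1 encode the pore and the smooth muscle beta subunit of the large-conductance calcium-activated channel. Kcnmb1 had 2.75, 3.48, 2.90 and 4.90 CPM in 7d-MI + 3 and 2.31, 2.23, 1.49 and 0.651 CPM in 7d-SHAM + 3 (1.08 ± 0.36, adjusted p = 0.025). Kcnma1 had 0.743, 0.387, 1.67 and 0.499 CPM in 7d-MI + 3 and 0.0680, 0, 0.102 and 0.0543 CPM in 7d-SHAM + 3 and was called higher (adjusted p = 0.003), as was Kcnk1, with 0.232 to 0.781 CPM in 7d-MI + 3 and 0 to 0.124 CPM in 7d-SHAM + 3. No fold is given for these, since the SHAM values rest on a few counts. Kcnma1 and Kcnk1 are among the 13 higher genes above background but met that rule in 7d-MI + 3 libraries alone, 3 for Kcnma1 and 4 for Kcnk1. Their calls are therefore not independent evidence of a direction. The 4 calls outside the genes above background were Kcns1 and Kcnq3, higher, and Kcnc4 and Kcne2, lower, with no count of Kcnc4 or Kcne2 in any 7d-MI + 3 library and none of Kcns1 in any 7d-SHAM + 3 library.

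**Figure D3:**
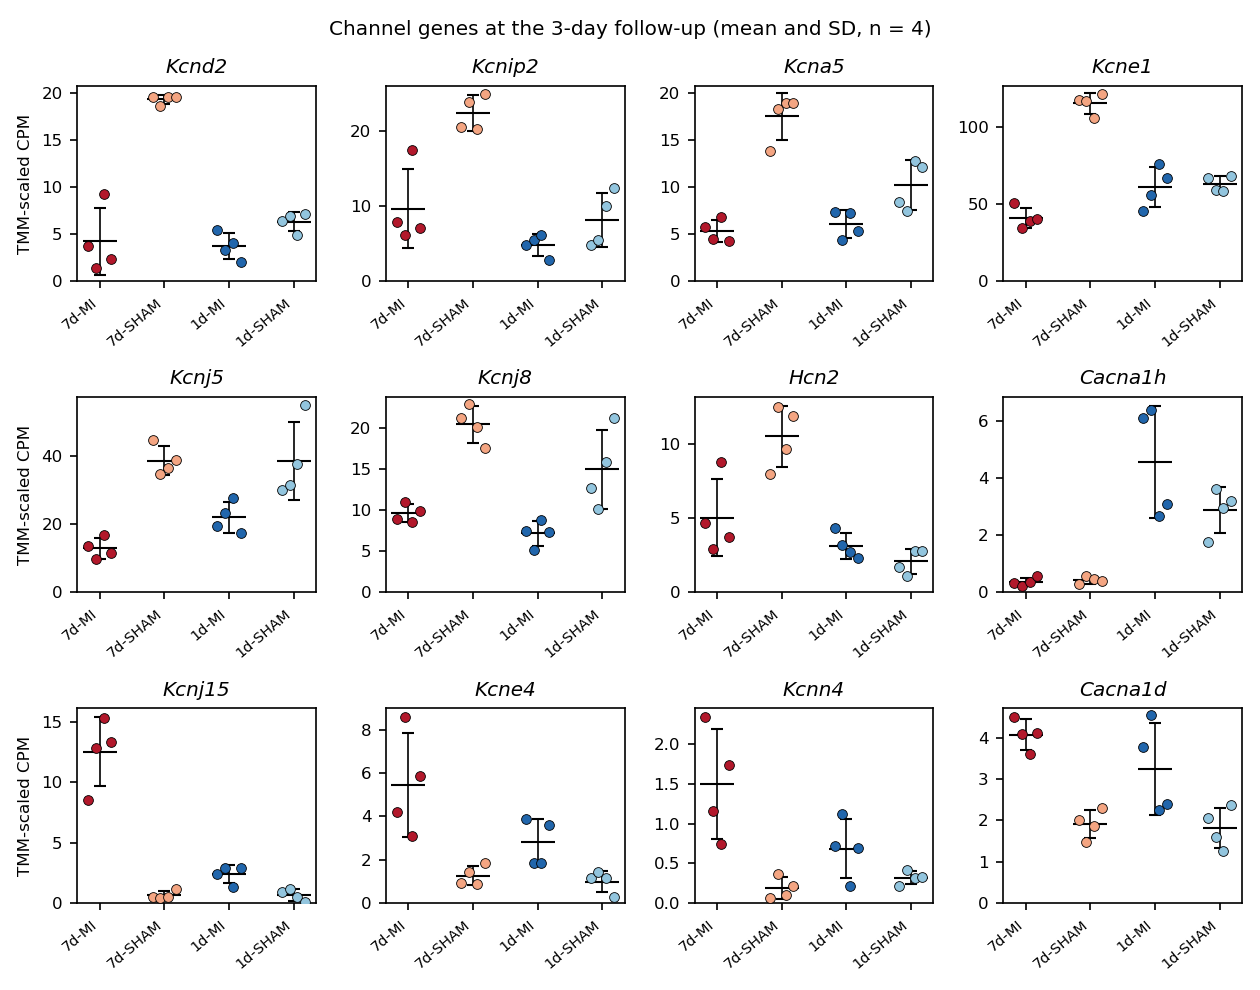
TMM-scaled CPM of selected channel genes in each 3-day library, 1 panel per gene on a linear axis from 0; points are mice and bars the mean and SD, with 7d-MI left of 7d-SHAM and 1d-MI left of 1d-SHAM. The 7d-MI + 3 points of Kcnj15 lie at 8.56 to 15.3 CPM, those of 7d-SHAM + 3 at 0.464 to 1.14 CPM.

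Of the 33 calls above background, 24 held under each alternative and without any single library, among them Kcna5, Kcnd2, Kcne1, Kcnh2, Kcnip2, Kcnj2, Kcnj3, Kcnj5, Kcnj8, Kcnj15, Kcnab2, Kcne3, Kcne4 and Cacna1d. Replicate 3 of 7d-MI + 3 stood apart: it was the highest of its group for 15 of the 20 lower genes. Its summed cardiomyocyte markers were 22596 CPM, against 12791 to 14281 CPM in the other 3 libraries of 7d-MI + 3 and 22909 to 24489 CPM in 7d-SHAM + 3. Without it 37 channel genes were called, as with it, while 28.4% of all genes were called, against 34% with it. Of the 7 cardiomyocyte markers 4 were lower in 7d-MI + 3, with a median log2 fold change of -0.71, and all 4 leukocyte markers were higher, with a median of 2.20 and summed levels of 100.04 to 174.73 CPM in 7d-MI + 3 and 23.56 to 39.97 CPM in 7d-SHAM + 3. The part of fewer cardiomyocytes or more leukocytes in the channel calls was not tested. The 4 atrial markers, which include Nppa, a natriuretic peptide gene that ventricles also use after injury, summed to 729 to 2231 CPM in 7d-MI + 3 and 99.2 to 157 CPM in 7d-SHAM + 3, and Sln, the defining one of them, had no count in 7d-MI + 3. Of these, Myl4 and Myl7 were not called. The nodal markers summed to 21.4 to 28.3 CPM in 7d-MI + 3 and 14.2 to 17.1 CPM in 7d-SHAM + 3, with 2 of 4 called higher and 1 lower and Isl1 at 0 in both groups. The skeletal muscle markers summed to 1.43 to 3.04 CPM in 7d-MI + 3 and 0.408 to 0.814 CPM in 7d-SHAM + 3, again without overlap. Of the 4 fibroblast markers 3 were called higher and 1 lower, with overlapping sums of 1302 to 1617 CPM in 7d-MI + 3 and 1152 to 1351 CPM in 7d-SHAM + 3. The adipocyte markers summed to at most 0.271 CPM in 7d-MI + 3 and 0.186 CPM in 7d-SHAM + 3. The part of these lists in the calls of Cacna1d, Cacnb1 and the other channel genes was not tested.

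Of 31 genes listed as regulators or anchors of these channels, 1 was called higher and 12 lower in 7d-MI + 3, where 19.8% and 14.2% of all genes were called, and their median log2 fold change was -0.41, against 0.08 over all genes. Klf15, a transcription factor of the adult heart known in mice to control Kcnip2, fell by 2.13 ± 0.29 on the log2 scale (SE; adjusted p = 1.3e-05). Fgf13, which binds the sodium channel from inside the cell, fell by 1.18 ± 0.20, and Ank2, the ankyrin that holds channels at the membrane, fell by 0.81 (adjusted p = 0.0089). Lrrc10, a cardiac protein that binds the L-type channel complex, fell by 1.73 ± 0.18. Irx3 and Irx5, homeobox regulators of potassium channel genes across the wall, were not called (-0.23 ± 0.26 and 0.18 ± 0.23).

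Promoter windows are shown for Kcna5 and Kcnj5, the lower genes called after MI at both operation ages with the smallest p on day 7, and for Kcnj15, the gene with the largest rise above background. Each runs 5′ to 3′ over 300 bases around the RefSeq transcript start on GRCm38.p6. Capitals mark matches, on either strand, to any of 5 short motifs. These were the TATA box with the letters TATAAA, the GC box with the letters GGGCGG, the binding site of GATA factors with the letters AGATAA, the site of the AP-1 factors with the letters TGANTCA and that of the TEAD factors with the letters GGAATG. Matches can overlap one another. The E-box, with the letters CANNTG, was searched as well but not capitalised. The Kcna5 window is chr6:126535506-126535805, minus strand, with 55.0% G or C and 1 match, to the TEAD letters.
Kcna5: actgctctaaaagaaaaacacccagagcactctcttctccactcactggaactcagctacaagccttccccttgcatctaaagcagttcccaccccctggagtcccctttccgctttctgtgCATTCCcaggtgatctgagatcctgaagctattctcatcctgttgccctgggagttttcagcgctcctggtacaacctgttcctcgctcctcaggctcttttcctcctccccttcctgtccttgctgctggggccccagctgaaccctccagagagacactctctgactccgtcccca
The Kcnj5 window is chr9:32344295-32344594, minus strand, with 58.3% G or C and 2 GC boxes.
Kcnj5: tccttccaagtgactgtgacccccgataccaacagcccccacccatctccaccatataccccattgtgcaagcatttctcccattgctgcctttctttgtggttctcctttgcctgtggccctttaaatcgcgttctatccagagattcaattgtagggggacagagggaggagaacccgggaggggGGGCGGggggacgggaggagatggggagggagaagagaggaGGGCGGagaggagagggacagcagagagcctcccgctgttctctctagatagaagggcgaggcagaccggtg
The Kcnj15 window is chr16:95257308-95257607, plus strand, with 49.7% G or C, a GATA match and a TATA match close to each other.
Kcnj15: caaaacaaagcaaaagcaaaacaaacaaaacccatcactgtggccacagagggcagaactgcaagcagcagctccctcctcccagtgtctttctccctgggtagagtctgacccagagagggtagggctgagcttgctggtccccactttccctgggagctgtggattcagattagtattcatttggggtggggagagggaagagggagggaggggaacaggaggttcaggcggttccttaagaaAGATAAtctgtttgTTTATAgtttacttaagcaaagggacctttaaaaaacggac

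Windows were found for 101 of the 138 genes (137 windows). Kcne1 is among those without one. GC boxes were in 46.0% of the channel windows and 35.7% of all 32851 windows. Of the 16 windows of genes lower in 7d-MI + 3, 9 held a GC box and 0 a TATA box, and of the 20 windows of genes higher there, 2 held a TATA box, against 13.6% of all windows. A match is only a run of letters, and no test was made of these shares.

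After MI on day 1, fewer channel genes were called after 3 days than after MI on day 7. In 1d-MI + 3 against 1d-SHAM + 3, edgeR called 10 of 126 channel genes higher and 4 lower, where 4.10% and 4.36% of all genes were called. Of the genes above background 6 were higher and 4 lower, and their median log2 fold change was 0.43. The median was 1.27 over all 126 channel genes tested and 0.06 over all genes, where no background rule was applied. The background was higher in 1d-MI + 3 than in 1d-SHAM + 3, the higher calls of Cacna1e, Kcnh3 and Kcnip1 were of genes not above it, and the part of background in the positive median was not tested.

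The 4 lower genes were inward rectifiers and Kcna5. Kcnj8 had 7.42, 5.09, 8.79 and 7.28 CPM in 1d-MI + 3 and 12.6, 10.1, 15.8 and 21.2 CPM in 1d-SHAM + 3 (log2 fold change -1.06 ± 0.20, adjusted p = 0.0041). Kcnj5 had 19.5, 23.2, 27.8 and 17.5 CPM in 1d-MI + 3 and 29.9, 31.4, 37.8 and 55.1 CPM in 1d-SHAM + 3 (log2 fold change -0.81 ± 0.20, adjusted p = 0.018). Kcnj2 had 31.1, 25.4, 30.5 and 17.6 CPM in 1d-MI + 3 and 43.4, 33.7, 42.9 and 54.8 CPM in 1d-SHAM + 3 (log2 fold change -0.74 ± 0.20, adjusted p = 0.028). In none of the 3 did the groups overlap. Kcna5 fell by 0.74 ± 0.21 on the log2 scale (SE; adjusted p = 0.034), with 4.42 to 7.37 CPM in 1d-MI + 3 and 7.48 to 12.8 CPM in 1d-SHAM + 3.

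The genes that rose were Kcne3, Kcne4, Kcnj15, Kcnk13, Cacna1a and Cacna1d. Kcne3 had 2.03, 5.38, 5.42 and 8.03 CPM in 1d-MI + 3 and 2.21, 1.54, 1.11 and 1.50 CPM in 1d-SHAM + 3 (log2 fold change 1.71 ± 0.36, adjusted p = 0.0081). Kcnj15 had 2.41, 2.93, 1.31 and 2.90 CPM in 1d-MI + 3 and 0.936, 1.14, 0.487 and 0.0666 CPM in 1d-SHAM + 3 (log2 fold change 1.80 ± 0.45, adjusted p = 0.024), with no overlap. Kcne4 had 3.88, 1.85, 1.87 and 3.62 CPM in 1d-MI + 3 and 1.15, 1.42, 1.15 and 0.266 CPM in 1d-SHAM + 3 (1.46 ± 0.41, adjusted p = 0.035). Cacna1a, the pore of the neuronal P/Q-type calcium channel, rose by 1.27 ± 0.30, Cacna1d by 0.84 ± 0.25 and Kcnk13 by 2.37 ± 0.59 on the log2 scale (SE). Averaged over 1d-MI + 3, Kcnj15 had 0.355, Kcnk13 0.319, Cacna1a 0.427 and Cacna1d 0.351 RPKM. These means are near the background of that group, which was 0.0766 to 0.487 RPKM when taken over protein-coding counts. Of the 13 genes higher after day-7 MI 5 were also higher here, which is 38.5% of the 13 and 83.3% of the 6, and of the 20 lower genes 4 were also lower here, 20% of the 20 and 100% of the 4. After day-7 MI 19.8% and 14.2% of all genes were called higher and lower. The overlap over all genes is not given here, so these shares only describe the channel genes.

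These day-1 calls depended on how the fit was made. With only the 8 libraries of the comparison in the fit, 0 of 14 were called. That fit called 0.826% of all genes, against 8.46% in the main fit. Leaving out single libraries gave 4 to 40 channel calls. There were 40 without replicate 2 of 1d-SHAM + 3 and 27 without replicate 3 of 1d-MI + 3. The calls of Kcne3 and Kcnj8 held whichever library was left out. With the background subtracted, 6 of the 10 higher and 1 of the 4 lower calls were kept. The adjusted p in edgeR was then 0.069 for Kcna5, 0.1 for Kcnj2, 0.057 for Kcnj5 and 0.32 for Cacna1d. Of the 7 cardiomyocyte markers 2 were lower and of the 4 leukocyte markers 2 were higher in 1d-MI + 3, with leukocyte sums of 20.1 to 57.4 CPM in 1d-MI + 3 and 13.7 to 20.1 CPM in 1d-SHAM + 3. The summed mural markers were 332 to 586 CPM in 1d-MI + 3 and 607 to 735 CPM in 1d-SHAM + 3, with 0 of 4 called. In 1d-MI + 3 the fibroblast markers summed to 436 to 664 CPM and the skeletal muscle markers to 3.67 to 8.11 CPM, against 695 to 880 and 1.06 to 2.58 CPM in 1d-SHAM + 3. The atrial markers, mostly Nppa, summed to 2248 to 4172 CPM in 1d-MI + 3 and 35.6 to 313 CPM in 1d-SHAM + 3, and Myl7, the atrial myosin light chain, had 3.44 to 5.97 CPM in 1d-MI + 3 and 0.613 to 2.26 CPM in 1d-SHAM + 3. These 4 sums did not overlap between the groups, and their part in the channel calls was not tested. Of the 31 regulators and partners 0 were higher and 4 lower, where 4.10% and 4.36% of all genes were called.

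**Figure D4:**
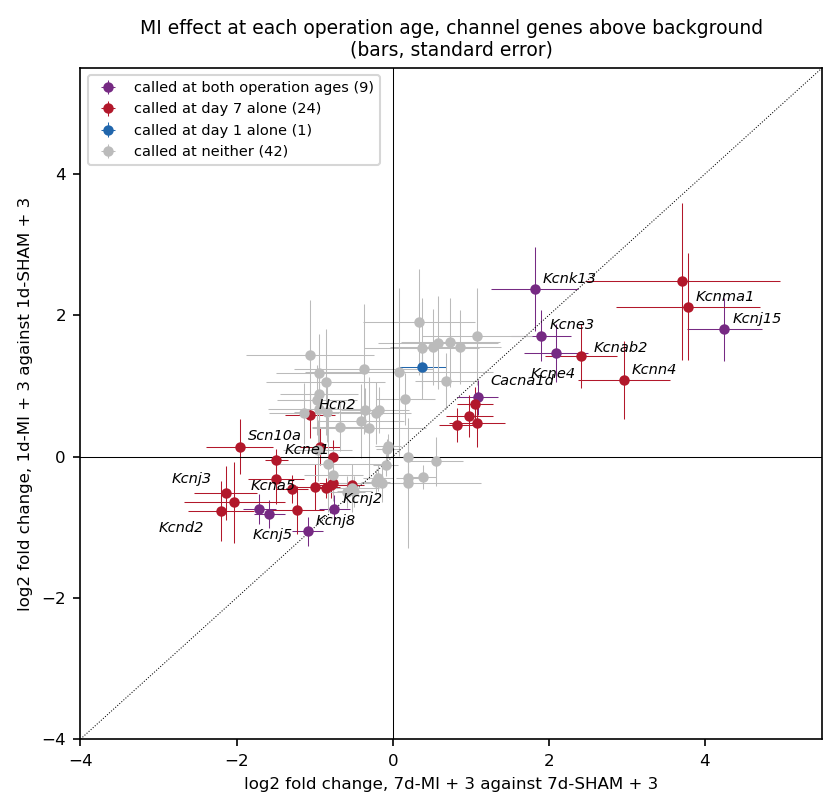
Log2 fold change with its standard error for the 76 channel genes above background after 3 days, day-7 MI on the horizontal and day-1 MI on the vertical axis; colours show at which operation age a gene was called. Kcne1 lies at -1.49 and -0.05, Kcnj15 at 4.25 and 1.80.

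Whether the response to MI differed between the operation ages was tested directly, as the MI effect on day 7 minus that on day 1. edgeR called 1 of 126 channel genes higher and 8 lower in this difference, where 9.01% and 4.07% of all genes were called. Above background these were Kcnj15, higher, and Kcne1, Hcn2, Kcna5 and Scn10a, lower. The median was -0.63 over the 76 genes above background and -0.76 over all 126 channel genes tested. Over all genes, where no background rule was applied, it was 0.03. A negative difference means a lower MI effect on day 7 than on day 1. The background was higher in 1d-MI + 3 than in 1d-SHAM + 3, and its part in the negative median was not tested.

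Kcne1 had the smallest p, with a difference of -1.44 ± 0.21, adjusted p = 0.00035. It had 45.9, 55.8, 76.1 and 66.8 CPM in 1d-MI + 3 and 66.9, 59.4, 58.4 and 68.5 CPM in 1d-SHAM + 3, ranges that overlapped fully (log2 fold change -0.05 ± 0.15, adjusted p = 0.84), while the day-7 groups lay far apart. This was the only one of the 5 calls kept under each alternative and each left-out library. Kcnj15 rose more on day 7, by 2.45 ± 0.64 (SE; adjusted p = 0.018), a call that limma-voom did not make (adjusted p = 0.079). For Hcn2 the difference was -1.65 ± 0.46, adjusted p = 0.023, and the gene had 4.34, 3.19, 2.68 and 2.28 CPM in 1d-MI + 3 and 1.67, 1.10, 2.79 and 2.80 CPM in 1d-SHAM + 3. The differences of Kcna5 (-0.97 ± 0.29, adjusted p = 0.033) and Scn10a (-2.10 ± 0.58, adjusted p = 0.02) were each lost, like that of Hcn2, when some single library was left out. For Kcnd2, Kcnj3, Kcnj5 and Kcnh2 the differences were -1.42 ± 0.59, -1.61 ± 0.55, -0.78 ± 0.28 and -0.83 ± 0.29, none of which passed (adjusted p = 0.12, 0.062, 0.069 and 0.063). Without replicate 3 of 7d-MI + 3, 18 channel genes were called in the difference, where 11.6% of all genes were called. The lower calls of Kcnc4, Kcnh6, Kcne2 and Cacna1e were of genes not above background.

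A direct comparison of the infarcted groups, 7d-MI + 3 against 1d-MI + 3, combines age and operation age and shares its libraries with the comparisons above. edgeR called 11 of 126 channel genes higher and 61 lower, where 19.4% and 23.5% of all genes were called. Of the 61 lower genes 41 were not above background, led by Kcnc4, Kcnh6, Kcnj9, Kcng4, Cacna1f, Cacng8, Kcnk18, Cacng5, Kcnk4 and Cacng3, and the background was 0.0243 to 0.0438 in 7d-MI + 3 and 0.0766 to 0.487 in 1d-MI + 3. With the background subtracted, 82 channel genes were tested, and 17 were called higher and 17 lower. That fit called 38.9% of all genes in either direction. The genes above background comprised 11 higher and 20 lower calls, with 16 of the 31 held under every alternative and left-out library.

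The higher genes included Kcnj15, Kcnab2, Scn7a, Kcnip2, Kcnt2, Cacnb3, Kcnk3 and Kcnk6. Kcnj15 led them, at a log2 fold change of 2.39 ± 0.43, adjusted p = 0.00034. Scn7a rose by 1.12 ± 0.17 and Kcnt2, a sodium-activated potassium channel, by 1.00 ± 0.19 on the log2 scale (SE), and for both the groups did not overlap. Cacna1h fell furthest above background, with 0.334, 0.232, 0.353 and 0.564 CPM in 7d-MI + 3 and 6.12, 6.41, 2.66 and 3.09 CPM in 1d-MI + 3 (log2 fold change -3.62 ± 0.37, adjusted p = 7.2e-07). Kcnj4 (-3.21 ± 0.72), Cacng6 (-2.88 ± 0.65), Scn10a (-2.69 ± 0.43), Hcn4 (-2.63 ± 0.82) and Kcnab3 (-2.07 ± 0.45) followed. Averaged over 1d-MI + 3, Cacna1h had 0.468, Kcnab3 0.461, Kcnj4 0.442, Hcn4 0.368, Scn10a 0.345 and Cacng6 1.09 RPKM. All but Cacng6 lay near the background of that group, and these folds were taken without subtracting it. The call of Hcn4 did not hold under every alternative and left-out library, while those of the others named here did. Kcne1 and Kcnj5 were also called lower, with log2 fold changes of -0.57 ± 0.15 and -0.77 ± 0.20, and Kcnd2, Kcna5 and Kcnj2 were not called (0.19 ± 0.42, -0.18 ± 0.21 and 0.11 ± 0.20). All 4 endothelial, 4 fibroblast, 4 mural and 4 leukocyte markers were called higher here. Of the 7 cardiomyocyte markers 3 were higher and 2 lower. Lower calls also included 3 of 4 skeletal muscle, 3 of 4 tested nerve, 2 of 3 tested atrial, 1 of 4 nodal and 1 of 2 tested adipocyte markers. The part of cell makeup in these channel calls was not tested.

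After 21 days no channel gene was called in any comparison, and few of all genes were. Of 128 channel genes tested in edgeR, 0 were called in each of the 5 comparisons, where 0% of all 24646 genes were called in 7d-MI + 21 against 7d-SHAM + 21, 0.0162% in 1d-MI + 21 against 1d-SHAM + 21, 0.0325% in 7d-MI + 21 against 1d-MI + 21, 0% in 7d-SHAM + 21 against 1d-SHAM + 21 and 0% in the difference of the MI effects. An unadjusted p under 0.05 was found for 29, 18, 13, 0 and 6 channel genes in that order. DESeq2 called 8, 3, 1, 0 and 0 channel genes, where it called 4.17, 1.33, 0.844, 0 and 0.179% of all genes. Its calls above background are named with their p beside the edgeR values. With 3 mice a group, the biological coefficient of variation was 0.567, against 0.331 in the 3-day libraries with 4, and a lack of calls does not show that the levels were alike.

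In 7d-MI + 21 against 7d-SHAM + 21 the genes above background with the smallest p were Kcnq5, Kcnj2, Kcnk2, Kcne4 and Kcnn2. Kcnq5, a Kv7 potassium channel, had 0.614, 0.970 and 1.54 CPM in 7d-MI + 21 and 2.35, 3.55 and 2.80 CPM in 7d-SHAM + 21, without overlap (log2 fold change -1.48 ± 0.39, adjusted p = 0.18). Kcnj2 had 37.0, 47.9 and 44.6 CPM in 7d-MI + 21 and 68.2, 134 and 79.3 CPM in 7d-SHAM + 21, again without overlap (log2 fold change -1.12 ± 0.35, adjusted p = 0.22). Kcnk2 had 4.52, 3.91 and 6.93 CPM in 7d-MI + 21 and 2.29, 2.38 and 2.49 CPM in 7d-SHAM + 21 (log2 fold change 1.10 ± 0.35, adjusted p = 0.22). Kcne4 and Kcnn2, a small-conductance calcium-activated channel, had log2 fold changes of 1.31 ± 0.43 and -0.92 ± 0.31. DESeq2 called Kcnq5 (adjusted p = 0.013), Kcnj2 (0.022), Kcnn2 (0.02) and Cacna2d1 (0.032), all lower, and did not call Kcnk2 or Kcne4. The genes not above background Cacna1b and Cacna1f had unadjusted p-values of 0.0018 and 0.0067 in edgeR.

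Kcnd2, Kcnip2 and Kcne1, lower 3 days after day-7 MI, had overlapping groups after 21 days. Kcnd2 had 8.07, 8.91 and 7.97 CPM in 7d-MI + 21 and 13.6, 12.8 and 7.90 CPM in 7d-SHAM + 21 (log2 fold change -0.46 ± 0.31, adjusted p = 0.43). Kcnip2 had 65.1, 166 and 138 CPM in 7d-MI + 21 and 144, 84.0 and 129 CPM in 7d-SHAM + 21, and Kcne1 had 3.94, 11.4 and 6.81 CPM in 7d-MI + 21 and 10.8, 7.88 and 11.5 CPM in 7d-SHAM + 21. Kcnj15 had 11.8, 4.40 and 6.32 CPM in 7d-MI + 21 and 1.18, 1.20 and 6.75 CPM in 7d-SHAM + 21, where replicate 3 of the SHAM group lay within the MI range (log2 fold change 1.34 ± 0.65, adjusted p = 0.31).

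Replicate 1 of 7d-SHAM + 21 decided the day-7 count. Left out, 36 channel genes were called in 7d-MI + 21 against 7d-SHAM + 21, 12 higher and 24 lower, where 21.6% of all genes were then called. Of the lower genes 19 were not above background, and 5 were (Cacna2d3, Kcnq5, Kcnip4, Cacna2d1 and Kcnj2). All 12 higher genes were above background, among them Kcnj12, Cacnb1, Kcng2, Kcnj5, Hcn2, Kcnk6, Kcne4 and Kcnj8. The 2 SHAM libraries that then remain had background levels of 0.228 and 0.354, against 0.0618 to 0.0709 in 7d-MI + 21. Leaving replicate 1 out also gave 6 calls in 1d-MI + 21 against 1d-SHAM + 21, groups it does not belong to, where 4.43% of all genes were then called. Its Kcnk3 level was 123 CPM, against 39.5 and 39.9 CPM in the other 2 SHAM libraries.

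In 1d-MI + 21 against 1d-SHAM + 21 the smallest p above background was that of Kcnip4, a KChIP subunit, with 0.745, 0.741 and 1.03 CPM in 1d-MI + 21 and 2.52, 1.81 and 2.61 CPM in 1d-SHAM + 21 (log2 fold change -1.46 ± 0.40, adjusted p = 0.28). Cacna1d had 1.84, 2.25 and 1.73 CPM in 1d-MI + 21 and 4.24, 3.87 and 3.90 CPM in 1d-SHAM + 21, without overlap (log2 fold change -1.05 ± 0.32, adjusted p = 0.28). Cacnb4 and Kcnn2 had lower means in 1d-MI + 21, of 0.943 ± 0.0592 and 4.52 ± 0.3999 CPM, against 2.01 ± 0.752 and 7.94 ± 2.41 CPM in 1d-SHAM + 21 (SD, n = 3). DESeq2 called Kcnip4 (adjusted p = 0.039) and Cacna1d (0.03) lower. Kcnj1, not above background, had a p of 0.003 without adjustment.

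In 7d-MI + 21 against 1d-MI + 21, Kcnk2 came closest, with 4.52, 3.91 and 6.93 CPM in 7d-MI + 21 and 2.08, 2.09 and 1.26 CPM in 1d-MI + 21 (log2 fold change 1.51 ± 0.36, adjusted p = 0.21), and DESeq2 called it (adjusted p = 0.0043). Of the exon bases of Kcnk2, 12.2% lie under opposite-strand exons, as given above. Kcnj15 had 11.8, 4.40 and 6.32 CPM in 7d-MI + 21 and 1.01, 1.48 and 3.00 CPM in 1d-MI + 21 (2.02 ± 0.66, adjusted p = 0.48). Kcna5 had 5.33, 21.2 and 14.7 CPM in 7d-MI + 21 and 48.6, 58.8 and 17.7 CPM in 1d-MI + 21 (-1.60 ± 0.55, adjusted p = 0.54), with overlap at 1 library. Cacna1d and Kcna1 followed (0.90 ± 0.32 and -0.98 ± 0.37).

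Summed levels of several marker lists lay apart between the 21-day groups, although no marker was called in edgeR (for Myl4, an atrial light chain, the unadjusted p was 0.00064 in 7d-MI + 21 against 7d-SHAM + 21). The atrial markers summed to 2143 to 4518 CPM in 7d-MI + 21 and 88.4 to 970 CPM in 7d-SHAM + 21. They were not Nppa alone, for Myl4 had 77.4, 547 and 408 CPM in 7d-MI + 21 and 2.87, 2.20 and 9.10 CPM in 7d-SHAM + 21, and Sln had 5.22, 49.7 and 32.9 CPM in 7d-MI + 21 and 0, 0.143 and 1.42 CPM in 7d-SHAM + 21. Myl4 and Sln were also found in both day-1 groups, with Myl4 at 4.34, 345 and 95.2 CPM in 1d-MI + 21 and 162, 42.6 and 23.8 CPM in 1d-SHAM + 21. The samples are described as left ventricle, and the source of these transcripts was not tested. In 7d-MI + 21 the fibroblast markers summed to 981 to 1481 CPM, the leukocyte markers to 67.8 to 96.7 CPM and the mesothelial markers to 10.2 to 16.7 CPM, against 341 to 763, 46.7 to 58.0 and 1.06 to 4.48 CPM in 7d-SHAM + 21. The adipocyte markers summed to 7.19 to 12.2 CPM in 7d-MI + 21 and 0.277 to 5.99 CPM in 7d-SHAM + 21. None of these sums overlapped between the groups. Those of the atrial, fibroblast, leukocyte, mesothelial and adipocyte lists in 7d-MI + 21 also lay above each library of 1d-MI + 21. In 1d-MI + 21 the cardiomyocyte markers summed to 20105 to 25510 CPM, against 14792 to 18763 CPM in 1d-SHAM + 21. The part of these lists in the 21-day channel values was not tested.

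In 7d-SHAM + 21 against 1d-SHAM + 21 the 5 smallest p-values, those of Kcnk7, Kcnab3, Kcna2, Kcne1l and Kcne3, had an adjusted p of 1. The same was true of Kcnk2, Cacna1d, Kcnq5, Kcnn3 and Kcnk7 in the difference of the MI effects, where Kcnk2 had 1.50 ± 0.50 and Cacna1d 1.23 ± 0.45 (SE). Of the 31 regulators and partners 0 were called in each of the 5 comparisons.

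**Figure D5:**
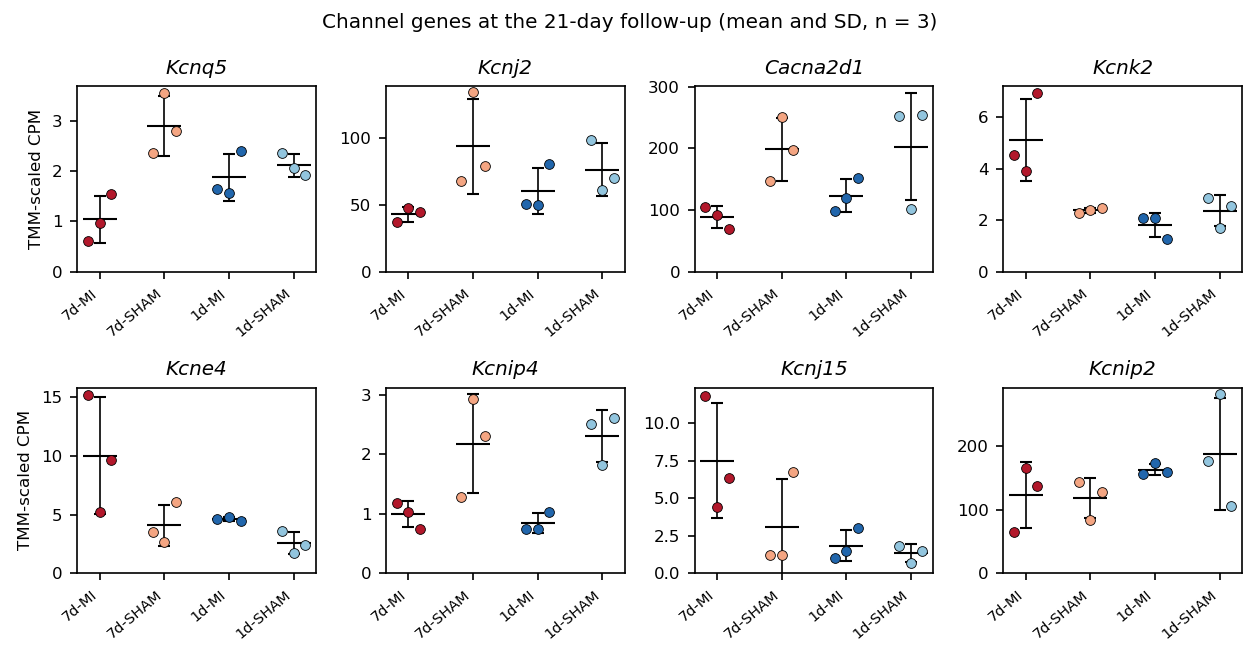
TMM-scaled CPM of selected channel genes in each 21-day library, 1 panel per gene on a linear axis from 0; points are mice and bars the mean and SD, with 7d-MI left of 7d-SHAM and 1d-MI left of 1d-SHAM. The 7d-MI + 21 points of Kcnk2 lie at 3.91 to 6.93 CPM and those of 7d-SHAM + 21 at 2.29 to 2.49 CPM.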

How the data were processed

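RNA of the left ventricle was sequenced from 28 mice in 8 groups, 16 after 3 days (TruSeq stranded total RNA) and 12 after 21 days (ScriptSeqV2). The deposited tables give whole-number counts, CPM and RPKM per gene, made by the authors. The submitters' processing notes name TopHat2 2.0.11, Bowtie2 2.2.2, Cufflinks 2.2.1 and GRCm38, and neither the counting tool nor its strand setting is stated there. Deposited CPM were the counts over the library total. The deposited RPKM of the authors were used only to recover gene lengths, and RPKM was recomputed from the counts. For 2 libraries with 2 lanes the lane counts were added.

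The counts of all gene rows were tested in edgeR 4.0.16 (quasi-likelihood, TMM, filterByExpr with a minimum count of 10, group means over all groups of a follow-up, each follow-up fitted apart) in R 4.3.3, with Benjamini-Hochberg adjustment over all genes tested and 0.05 as threshold. Standard errors are the log2 fold change over the root of F. The pipeline was tested on simulated counts. Alternatives were RLE scaling, no filter, a mean count of at least 50, protein-coding rows alone, DESeq2 1.42.0, limma-voom (limma 3.58.1), the compared groups alone, a replicate block and each library left out. Subtraction of the estimated background was added after seeing the data. Named genes are a list of 34 cardiac channel genes, each channel gene called (the 10 of largest fold change per direction where over 30 were called) and, where none was called, the 5 of smallest p. The channel genes, lists and tests were chosen with earlier results of these data known. Results for a few genes that this rule would name are not reported here, while counts and medians over the channel genes include them. Promoters are from RefSeq (GRCm38.p6). Replicates differed beyond sampling noise in every group, so no libraries were merged.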

Additional observations from a re-analysis of the deposited data

Results flagged for a closer look

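Among 46 named channel genes, 184 groups of 4 libraries after 3 days were searched for a library whose gap to its nearest neighbour, as a share of the group's range, exceeded Dixon's critical value for 4 values. This was so in 15 groups, and chance gives about 1 in 20. Of the 15, 6 were replicate 3 of 7d-MI + 3, with levels in CPM of 91.4 for Cacna1c, 17.4 for Kcnip2, 8.21 for Kcnn3, 4.90 for Kcnab2, 2.92 for Kcnn2 and 1.96 for Scn4b. Except for Kcnab2, where it was the lowest, this library was the highest of its group. In 7d-SHAM + 3, replicate 1 had 13.9 CPM of Kcna5 and 2.24 CPM of Kcnd3, replicate 2 had 18.6 CPM of Kcnd2 and 0.124 CPM of Scn4b, and replicate 4 had 1.14 CPM of Kcnj15. In 1d-MI + 3, replicate 1 had 31.7 CPM of Kcnk3, replicate 3 had 0.576 CPM of Kcnab2 and replicate 4 had 1.82 CPM of Kcnj11. In 1d-SHAM + 3, replicate 2 had 0.465 CPM of Kcnk13.

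The MI effect differed between the operation ages for 9 channel genes by the interaction test in edgeR. The day-7 minus day-1 difference in log2 fold change was -1.44 for Kcne1 (adjusted p = 0.00035), 2.45 for Kcnj15 (0.018), -1.65 for Hcn2 (0.023), -0.97 for Kcna5 (0.033) and -2.10 for Scn10a (0.02). For genes not above background it was -7.28 for Kcnc4, -7.10 for Kcnh6, -6.34 for Kcne2 and -2.89 for Cacna1e, sizes that depend on the prior count where a group holds no counts.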

How the results depend on the processing

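For 7d-MI + 3 against 7d-SHAM + 3, where 37 channel genes were called, there were 31 to 40 calls when single libraries were left out, each over the genes tested in that fit. The other 3-day counts ranged more widely. For 1d-MI + 3 against 1d-SHAM + 3, where 14 channel genes were called, there were 39 calls with no filter, 27 with DESeq2, 26 with limma-voom, 0 with the compared groups alone and 4 to 40 with single libraries left out. Of all genes, 8.46% were called in the main fit, 13.7% with DESeq2, 11.9% with limma-voom and 0.826% with the compared groups alone. For 7d-MI + 3 against 1d-MI + 3 (72 calls) there were 28 with the stricter filter, 34 with the background subtracted and 57 to 82 with single libraries left out. The share of all genes called was 43% in the main fit and 38.9% with the background subtracted. Subtracting the background turned 3 lower calls of that comparison positive, with log2 fold changes of 1.06 for Cacnb4, 0.58 for Kcna6 and 1.05 for Kcnh7, and moved the median log2 fold change of all genes to 0.04, from -0.13. For 7d-SHAM + 3 against 1d-SHAM + 3 (28 calls) there were 45 with no filter, 17 with the stricter filter, 13 with limma-voom, 16 with the background subtracted, 17 with the compared groups alone and 14 to 36 with single libraries left out. Here 20.3% of all genes were called in the main fit. The share was 15.1% with limma-voom, 20.2% with the background subtracted and 21.8% with the compared groups alone. For the difference of the MI effects after 3 days (9 calls) there were 22 with no filter, 18 with DESeq2 and 5 to 18 with single libraries left out. The main fit called 13.1% of all genes in this difference and DESeq2 17.3%.

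After 21 days, 7d-MI + 21 against 7d-SHAM + 21 gave 1 call with no filter, 8 with DESeq2 and 0 to 36 with single libraries left out, 1d-MI + 21 against 1d-SHAM + 21 gave 3 with DESeq2, 1 with the compared groups alone and 0 to 6 with single libraries left out, and 7d-MI + 21 against 1d-MI + 21 gave 1 with DESeq2. DESeq2 called 4.17%, 1.33% and 0.844% of all genes in these comparisons, in that order. The other 21-day comparisons gave 0 to 0. RLE scaling moved the median of all genes in 1d-MI + 21 against 1d-SHAM + 21 to -0.22, from -0.11, with 0 calls. Animal names of the 21-day groups end in numbers that some groups share, and with these as a replicate block 0 channel genes were called in each comparison. Same-numbered libraries did not deviate together throughout (r of -0.188 to 0.544), so the numbers were not taken as pairs. No paired analysis was possible after 3 days because those names carry no numbers. Causes of these shifts were not tested.

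At depths of 33077962 counts and more, precision is limited by the spread between 3 or 4 mice and, for the low genes, by a background that differs between libraries and groups. Channel genes not above background support no statement on expression. Leaving out a library changes the groups' spread as well as their means.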
